A study of Mus musculus with 9 samples.

Results

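The genes described here are receptors of fibroblast growth factor (FGF), an adaptor protein that acts directly below them and genes whose transcription follows FGF signalling, as measured by RNA-seq in lenses of mouse embryos at stage E16.5 (E, embryonic day). They were chosen by symbol as the 10 genes *Fgfr1*, *Fgfr2*, *Fgfr3*, *Frs2*, *Spry1*, *Spry2*, *Dusp6*, *Etv1*, *Etv4* and *Etv5*, and 9 of them had an entry among the 15820 entries with a symbol (22013 entries in all). The expression of *Etv5* was not analysed here. The study compared lenses that lack Mafg, or Mafg and Mafk, which are small Maf transcription factors, with lenses that keep a working allele of each. The 9 libraries fell into 3 genotypes with 3 libraries each, namely control (*Mafg*+/-:*Mafk*+/-), compound KO (*Mafg*-/-:*Mafk*+/-) and double KO (*Mafg*-/-:*Mafk*-/-), and RNA of 8 pooled lenses went into each library. The mice were on an ICR background and carried germline knockout alleles, so that every tissue of the embryo carried them, and the control lenses were themselves heterozygous for both null alleles, since no wild-type lenses were in the comparison.

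FGF that diffuses from the retina and vitreous binds tyrosine kinase receptors on lens cells. The receptors phosphorylate the adaptor Frs2, which recruits the Ras-ERK kinase cascade. Active ERK drives the ETS transcription factors Etv1, Etv4 and Etv5, and induces its own inhibitors, the Sprouty proteins and the phosphatase Dusp6. FGF signalling is known to be required for lens induction, for survival of lens cells and for elongation of fiber cells.

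*Etv1* had the largest fitted difference of these genes between each knockout group and control. *Dusp6* lay above control in all *Mafg*-null libraries, the receptors overlapped between the genotypes, and the adaptor *Frs2* hardly varied. *Etv1* was at 1.1 to 2.1 normalized CPM in control lenses and at 18.0 to 31.7 in 5 of the 6 *Mafg*-null libraries, with the sixth, a double KO library, at 1.4. An entry without a symbol, picked for running opposite to *Etv1*, was listed at 0 in those 5 libraries and was at 32.6 to 34.9 in the rest. Its part in the *Etv1* values was not tested. *Dusp6* was at 15.2 to 30.3 in the *Mafg*-null libraries and at 12.1 to 14.3 in control. No gene of the 9 passed the threshold of limma in any of the 4 comparisons made, which was an adjusted p of at most 0.05 together with a 1.5-fold change. Normalized CPM is the unit of the deposited values, read counts scaled to a common library size (CPM) and then by 1 factor per library, and all values below are in it unless another scale is named.

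The targeted genes went with the labels in every library. *Mafg* was at 112.9 to 134.5 in control lenses, at 10.1 to 24.1 in compound KO lenses and at 21.2 to 26.2 in double KO lenses. *Mafk* was at 5.2 to 6.3, 4.3 to 5.3 and 0 to 0.6 in the same order. The library totals ranged from 728036 to 1131184, and the lowest belonged to replicate 1 of the compound KO, which also lay farthest from its own group (mean distance 112 on the log2 scale, against 72.9 to 97.5 in the other 8 libraries). The summed level of 11 lens fiber markers was 38906 in that library and 76829 to 125867 in the others, and that of 8 lens epithelial markers was 678 against 792 to 933. In the same library the sums of all 12 markers of periocular mesenchyme (2417 against at most 417), all 12 of neural retina (1271 against at most 312) and 6 of retinal pigment epithelium (709 against at most 56.1) were the highest of the 9. The sum of 11 skeletal muscle markers was at 3.2 to 5.3 in control lenses, 22.1 to 397 in compound KO lenses and 29.9 to 97.4 in double KO lenses, and the sum of 8 erythroid markers was at 1171 to 1640, 1426 to 2839 and 2340 to 3879. No marker of these lists was at 0 in all libraries. In whole lenses, fewer cells of a type and less RNA per cell cannot be told apart.

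**Figure D1:**
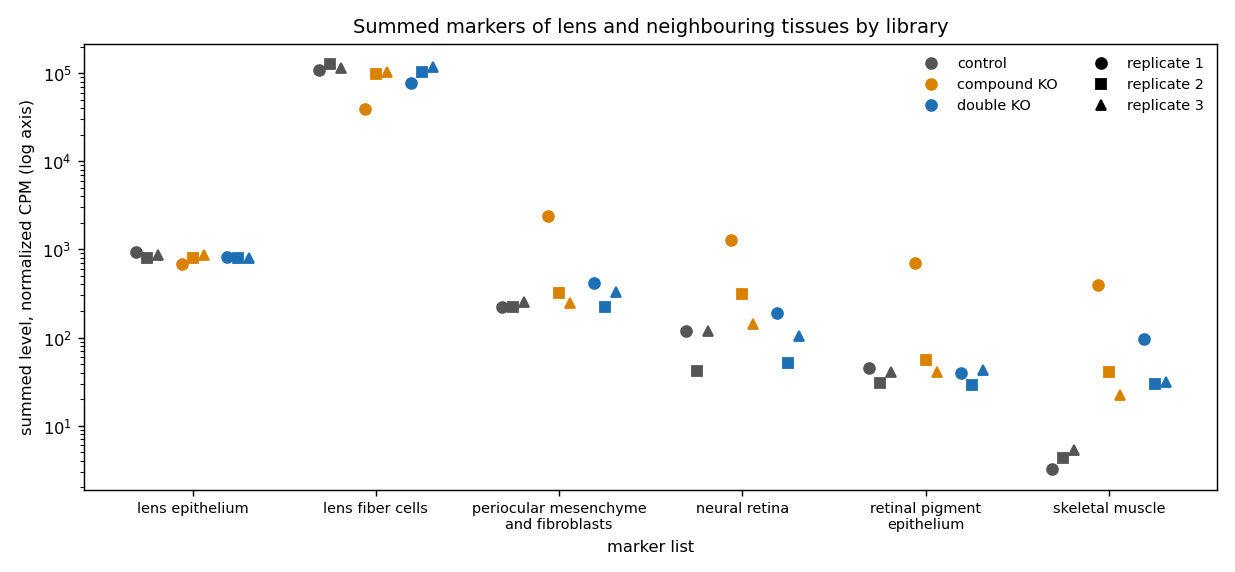
Summed level of marker genes in each of the 9 libraries, in normalized CPM on a log axis, with colours for genotype and symbols for replicate number. Replicate 1 of the compound KO (orange circle) has the lowest lens fiber sum, 38906, and the highest sums of mesenchyme, retina, pigment epithelium and muscle markers.

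Levels of different genes were compared per kilobase of the canonical transcript. In control lenses *Spry1* had the highest level, 17.0 ± 0.83 per kilobase (SD, n = 3), followed by *Spry2* at 10.4 ± 1.34, *Fgfr3* at 9.14 ± 1.34, *Fgfr1* at 7.85 ± 1.10, *Fgfr2* at 6.50 ± 2.78, *Frs2* at 5.14 ± 0.045 and *Dusp6* at 4.73 ± 0.41. The ETS genes were far lower, with *Etv4* at 0.653 ± 0.087 and *Etv1* at 0.248 ± 0.077. Neighbours in this order from *Spry2* down to *Frs2* overlapped between libraries, while *Spry1* lay above *Spry2* and *Dusp6*, *Etv4* and *Etv1* each lay below the gene before them in all 3 libraries. In double KO lenses *Etv1* stood at 3.24 ± 2.63 per kilobase and in compound KO lenses at 3.63 ± 0.78, above *Etv4* in the latter without overlap. *Dusp6* came directly after *Spry2* in compound KO lenses, at 8.17 ± 2.31 per kilobase, where it overlapped with its neighbours.

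The receptors take up the ligand at the cell surface, and of these *Fgfr1* (chromosome 8, 26003670 to 26066824 on the plus strand of GRCm39, the build to which all positions refer) was the steadiest. It was at 52.9, 51.2 and 40.5 in control lenses, at 38.1, 49.9 and 54.3 in compound KO lenses and at 50.0, 50.2 and 54.8 in double KO lenses. The groups overlapped, and the difference between double KO and control on the log2(value + 1) scale was 0.11 (95% interval −0.18 to 0.39). Between compound KO and control it was −0.03 (−0.46 to 0.40).

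*Fgfr2* (chromosome 7, 129763471 to 132725079, minus strand) varied most of the receptors, and did so within the control group. Its values were 46.9, 18.6 and 44.5 in control lenses, 17.2, 21.1 and 30.4 in compound KO lenses and 28.8, 29.4 and 19.8 in double KO lenses. Control replicates 1 and 3 lay above every *Mafg*-null library, and control replicate 2 lay below all of them but 1. The mean was 36.7 ± 15.7 in control, 22.9 ± 6.78 in compound KO and 26.0 ± 5.38 in double KO lenses (SD, n = 3). The log2 fold change was −0.39 (SE 0.38, limma adjusted p = 0.799) in double KO and −0.59 (SE 0.41, adjusted p = 0.518) in compound KO lenses. The intervals, −1.35 to 0.56 and −1.59 to 0.42, hold a fall of more than 1.5-fold as well as no change. Leaving out 1 library at a time moved the difference between double KO and control from −0.81 to −0.17, with the former value obtained without control replicate 2 and no call in any of these fits (adjusted p 0.380 to 0.938).

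*Fgfr3* (chromosome 5, 33879018 to 33894412, plus strand) was at 32.2, 40.5 and 43.0 in control lenses, 17.0, 28.0 and 37.1 in compound KO lenses and 44.4, 29.5 and 35.6 in double KO lenses. Its lowest value belonged to compound KO replicate 1, the library with the low lens fiber sum, and the part of that sum in the result was not tested. The log2 fold change was −0.54 (SE 0.29, limma adjusted p = 0.482) in compound KO lenses and −0.09 (95% interval −0.53 to 0.36) in double KO lenses. In the fits that left out 1 library, the former ranged from −0.78 to −0.24.

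*Frs2* (chromosome 10, 116905331 to 116984439, minus strand), the docking adaptor of the receptors, had the least spread of the 9 genes. It was at 33.3, 33.3 and 32.8 in control lenses, 32.5, 31.0 and 33.0 in compound KO lenses and 33.0, 33.8 and 33.4 in double KO lenses, a coefficient of variation of 2.45% over all 9 libraries. The 95% interval of its log2 fold change was −0.11 to 0.13 in double KO and −0.22 to 0.14 in compound KO lenses, which leaves out a 1.5-fold change in either direction.

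Among the feedback inhibitors, *Spry1* (chromosome 3, 37693897 to 37698755, plus strand) and *Spry2* (chromosome 14, 106128766 to 106136446, minus strand) encode Sprouty proteins, which restrain signalling between receptor and ERK. *Spry1* was at 48.3, 44.1 and 44.9 in control lenses, 23.0, 45.0 and 52.0 in compound KO lenses and 54.7, 48.5 and 49.3 in double KO lenses. The 3 double KO values lay above the 3 control values, by a log2 fold change of 0.15 (SE 0.07, limma adjusted p = 0.572). The lowest value again belonged to compound KO replicate 1, and without it the difference between compound KO and control turned from −0.27 to 0.08. *Spry2* was at 31.0, 38.7 and 31.4 in control, 26.3, 33.3 and 34.2 in compound KO and 38.1, 34.8 and 36.6 in double KO lenses. Double KO lay above compound KO in all libraries, by a log2 fold change of 0.23 (SE 0.12, adjusted p = 0.665).

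*Dusp6* (chromosome 10, 99086564 to 99103361, plus strand) encodes a cytoplasmic phosphatase that removes the activating phosphates from ERK. It was at 13.8, 14.3 and 12.1 in control lenses, at 30.3, 21.6 and 17.5 in compound KO lenses and at 18.0, 15.2 and 17.8 in double KO lenses. All 6 *Mafg*-null values lay above all 3 control values, and the compound KO values lay higher than, but overlapped with, those of the double KO. The mean was 13.4 ± 1.15 in control, 23.1 ± 6.54 in compound KO and 17.0 ± 1.56 in double KO lenses (SD, n = 3), a ratio to control of 1.73 and 1.27. On the log2 scale the fold change was 0.71 (SE 0.21, limma adjusted p = 0.481, unadjusted p = 0.016) in compound KO lenses and 0.32 (SE 0.10, adjusted p = 0.402, unadjusted p = 0.0238) in double KO lenses. With both knockout groups against control it was 0.52 (SE 0.16, adjusted p = 0.475). The highest value belonged to compound KO replicate 1, the library with the high mesenchyme, retina and muscle sums. Without that library the difference between compound KO and control was 0.51 (SE 0.13, adjusted p = 0.332) and that between both knockout groups and control was 0.42 (SE 0.10, adjusted p = 0.180).

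**Figure D2:**
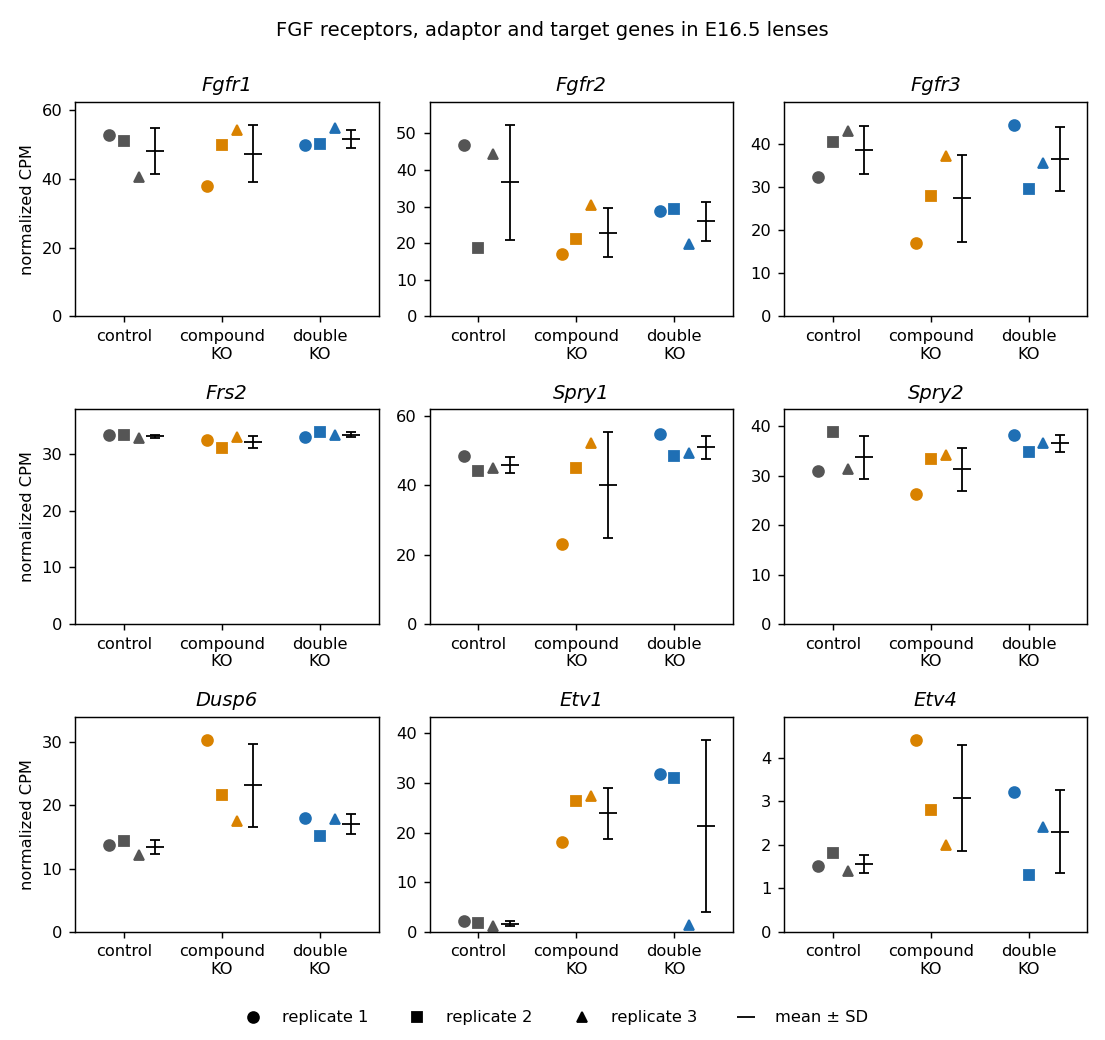
Normalized CPM of the 9 genes (each on its own linear axis from 0) in the 3 control, 3 compound KO and 3 double KO libraries, with symbols for replicate number and the mean ± SD beside each group. *Dusp6* lies above control in all 6 *Mafg*-null libraries, *Etv1* does so in 5 of them, and *Frs2* stays between 31.0 and 33.8.

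*Etv1* (chromosome 12, 38828851 to 38920483, plus strand) encodes an ETS transcription factor of the Pea3 group. It was at 2.1, 1.7 and 1.1 in control lenses, 18.0, 26.3 and 27.4 in compound KO lenses and 31.7, 30.9 and 1.4 in double KO lenses. Compound KO lay above control in every library, while replicate 3 of the double KO fell within the control range and the other two double KO libraries lay above every compound KO library. The mean was 1.63 ± 0.50 in control, 23.9 ± 5.14 in compound KO and 21.3 ± 17.3 in double KO lenses (SD, n = 3). The log2 fold change in compound KO lenses was 3.24 (SE 0.24, 95% interval 2.65 to 3.82). It had an unadjusted p of 1.36e-05, and with adjustment over the 14348 entries tested the limma p was 0.154. In double KO lenses it was 2.38 (SE 1.06, 95% interval −0.25 to 5.02, adjusted p = 0.550). With both knockout groups against control it was 2.81 (SE 0.80, adjusted p = 0.393, unadjusted p = 0.00817). Single libraries decided these values. Without double KO replicate 3 the fold change in double KO lenses was 3.63 (SE 0.20, adjusted p = 0.0141) and that of both knockout groups was 3.44 (adjusted p = 0.0084), and without compound KO replicate 1 that in compound KO lenses was 3.42 (adjusted p = 0.0326). Both libraries were singled out after their values were seen, although each library was left out in turn. Without double KO replicate 3 the difference between double KO and compound KO turned from −0.85 to 0.40 (adjusted p = 0.838). The control values of *Etv1* were near the lower limit of the table, so that the size of its fold change depends on the pseudocount. With all libraries kept and a pseudocount of 0.1 in place of 1, the log2 fold change was 3.81 (SE 0.30, limma adjusted p = 0.137) in compound KO lenses. In double KO lenses it was then 2.76 (SE 1.26, limma adjusted p = 0.560).

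High *Etv1* values went with values of 0 in another entry of the table. Of 5610 entries without a symbol that reached 1 in at least 1 library, that with the values most opposite to those of *Etv1* had 32.6, 34.3 and 34.9 in control lenses, and was listed at 0 in all 3 compound KO libraries and in double KO replicates 1 and 2. In double KO replicate 3, the library in which *Etv1* was at 1.4, it was at 32.7. The sum of this entry and *Etv1* was 34.7, 36.0 and 36.0 in control, 18.0, 26.3 and 27.4 in compound KO and 31.7, 30.9 and 34.1 in double KO lenses. On the sum the direction turned, with a log2 fold change of −0.14 (SE 0.06, limma adjusted p = 0.535) in double KO lenses, −0.58 (SE 0.17, adjusted p = 0.481) in compound KO lenses and −0.36 (SE 0.13, adjusted p = 0.559) in both knockout groups. The entry was picked for running opposite (Pearson r = −0.99 on the log2 scale over 9 libraries), and a search of this size returned r of −0.985 to −0.944 for the other 8 genes as well, so that r carries no weight of its own. Adding an entry picked in this way also works against the *Etv1* difference by construction. The turned direction and its p-values therefore carry no weight of their own. The table gives no locus for the entry, and its part in the *Etv1* values was not tested. The coefficient of variation over the 9 libraries was 88.8% for *Etv1* and 19.2% for the sum, and a sum with an entry picked for running opposite tends to vary less by construction. With the most opposite entry of each other gene added, the coefficient went from 38.3% to 3.83% for *Fgfr2*, 30.6% to 3.39% for *Dusp6*, 44.0% to 13.0% for *Etv4*, 20.1% to 7.84% for *Spry1* and 11.96% to 4.89% for *Fgfr1*. It went from 25.2% to 23.9% for *Fgfr3* and from 11.5% to 10.9% for *Spry2*, and for *Frs2* it was higher with the entry, 9.59% against 2.45%.

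**Figure D3:**
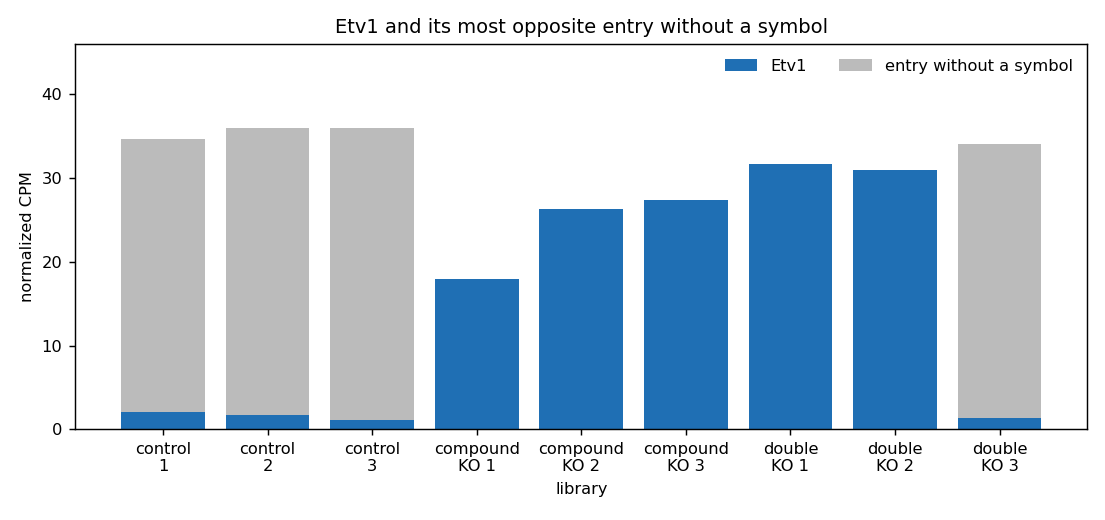
Stacked normalized CPM of *Etv1* (blue) and of its most opposite entry without a symbol (grey) in each library. *Etv1* is at most 2.1 in the 4 libraries in which the entry is at 32.6 to 34.9, and at 18.0 to 31.7 in the 5 libraries in which the entry is listed at 0.

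Since *Etv1* had the largest difference, its promoter windows in RefSeq (250 bases before to 50 after a start site, taken from GRCm38.p6 and matched letter for letter to GRCm39) are shown where they do not run into longer stretches of exon. The start site of the first window is within 100 bases of that of the canonical transcript and lies inside the annotated gene, since other transcripts of *Etv1* start further upstream. Its 250 bases before the start site, chr12:38829831-38830080 on the plus strand, lie outside all exons of the gene. Of the second window, 291 of 300 bases lie in exons of *Etv1*, and only 30 bases around the letters TGCTGA, letters of the element that small Maf proteins are known to bind, are printed (chr12:38833673-38833702, plus strand, these letters in capitals).
Etv1 before the start site of the first window: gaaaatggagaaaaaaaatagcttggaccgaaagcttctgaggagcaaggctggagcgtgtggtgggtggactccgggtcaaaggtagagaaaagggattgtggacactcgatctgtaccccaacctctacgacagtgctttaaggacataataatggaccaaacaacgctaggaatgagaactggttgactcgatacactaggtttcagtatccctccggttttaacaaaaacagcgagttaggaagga
Etv1 Maf letters in the second window: tgtttggttctcTGCTGActgacttttctg
The first window held none of the letters searched on both strands, which were TGCTGA, the antioxidant response element (whose letters can overlap TGCTGA) and the ETS core CGGAAGT. Windows were found for 8 of the 10 genes, not for *Fgfr1* and *Etv4*, and made 11 in all. TGCTGA occurred in 3 of them, of *Spry1*, *Fgfr2* and *Etv1*, and in 19.5% of the 32851 promoter windows of the table. The start sites of the *Fgfr2* window and of the second *Etv1* window had no annotated transcript start of the gene within 100 bases. That of the *Spry1* window had 5. The antioxidant response element occurred in 0 of the 11 and in 13.0% of all windows, and CGGAAGT in 1, that of *Frs2*, and in 6.42% of all. These are matches of letters and not measured binding.

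*Etv4* (chromosome 11, 101660568 to 101676197, minus strand), the other ETS gene of the Pea3 group with an entry, was near the lower limit of the table. It was at 1.5, 1.8 and 1.4 in control, 4.4, 2.8 and 2.0 in compound KO and 3.2, 1.3 and 2.4 in double KO lenses. Compound KO lay above control without overlap, by a log2 fold change of 0.62 (SE 0.25, limma adjusted p = 0.481, unadjusted p = 0.0456), and double KO overlapped with control (0.32, SE 0.24, adjusted p = 0.735). The highest value was again that of compound KO replicate 1, without which the difference between compound KO and control was 0.40 (SE 0.16, adjusted p = 0.449). The marker sums that stood out in this library were not tested for their part in this result.

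Read over the 9 genes, 0 were called by limma between double KO and control lenses, where 0.361% of all 14122 entries tested were called, and 1, *Dusp6*, had an unadjusted p of at most 0.05, as had 1408 of all entries. With the 1.5-fold change added to the unadjusted p, no gene of the 9 passed and 2.83% of all entries did. In the same comparison 2 genes, *Spry1* and *Dusp6*, lay above control without overlap, against 7.78% of all entries above. Between compound KO and control 0 of the 9 were called, as were 0% of 14348 entries, while 3 (*Etv1*, *Etv4* and *Dusp6*) had an unadjusted p of at most 0.05 together with a 1.5-fold change, as had 5.34% of all entries (766 of 14348). The same 3 lay above control without overlap, against 12.2% of all entries. Between double KO and compound KO 0 of 9 were called against 0.0139% of 14402 entries, none had an unadjusted p of at most 0.05 (701 of all entries had), none passed it with 1.5-fold (3.06% of all entries did), and *Spry2* alone lay apart, higher in the double KO, against 8.17% of all entries. Between all *Mafg*-null and control lenses 0 of 9 were called against 0.144% of 14578 entries, and *Etv1* and *Dusp6* had an unadjusted p of at most 0.05, as had 1232 of all entries. Of these, *Etv1* also passed 1.5-fold, as did 2.94% of all entries, and *Dusp6* lay above control in all libraries, against 2.68% of all entries. The comparisons with control share its 3 libraries. The median log2 fold change of the 9 genes was 0.12 between double KO and control and −0.04 between compound KO and control, beside 0.01 and 0.02 over all entries tested. An exact permutation test of 3 against 3 libraries cannot give a two-sided p below 0.1, and the p-values measure the spread between these pools of lenses.

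**Figure D4:**
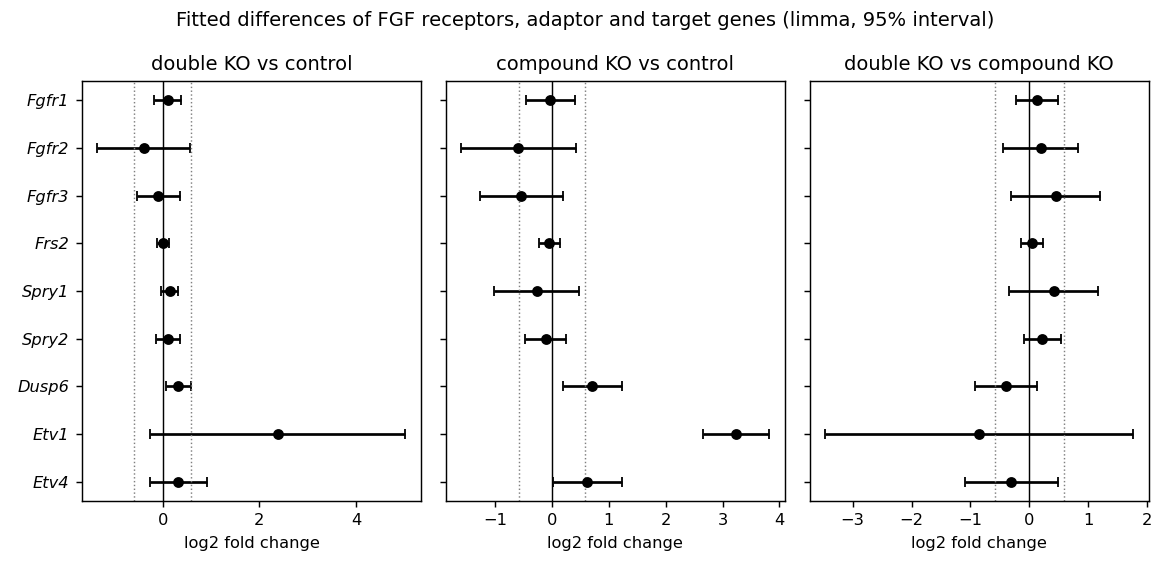
Log2 fold change of the 9 genes with its 95% interval from limma in 3 comparisons of genotypes, on the log2(value + 1) scale; dotted lines mark 1.5-fold. The interval of *Etv1* reaches from 2.65 to 3.82 between compound KO and control and from −0.25 to 5.02 between double KO and control, and those of *Frs2* stay inside the dotted lines.

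The wider pathway was read through 6 lists, of which no gene was called in any of the 4 comparisons. The list of FGF ligands had 8 of 22 genes in the table. Of these, *Fgf11*, *Fgf12*, *Fgf13* and *Fgf14* encode intracellular proteins of the family and not typical secreted ligands. In compound KO lenses 3 of the 8 were higher by the unadjusted threshold, which 5.34% of all entries passed in either direction. The median log2 fold change of the list was 1.27 there, against 0.02 over all entries. Between double KO and compound KO 2 of the 8 were lower by that threshold, which 3.06% of all entries passed in either direction. Between both knockout groups and control 1 was higher, against 2.94% in either direction. All of these 8 genes but *Fgf1* were highest in compound KO replicate 1, the library with the highest neural retina sum. All but *Fgf15* were low, at most 8.5 in control lenses. *Fgf15*, a ligand made in the neural retina, was at 45.2, 9.3 and 45.8 in control, 324, 106 and 67.3 in compound KO and 92.7, 12.5 and 48.7 in double KO lenses. Its highest and its lowest library were those with the highest and the lowest neural retina sum (1271 and 41.6), and the part of that tissue was not tested. Between double KO and control, the median of this list was 0.02 and none of its genes passed the unadjusted threshold.

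Of receptors and co-receptors, 7 of 10 were in the table, and their median log2 fold change was −0.38 in compound KO and −0.0024 in double KO lenses. *Fgfrl1*, a receptor without a kinase domain, was at 141, 155 and 127 in control, 60.7, 62.3 and 164 in compound KO and 162, 147 and 165 in double KO lenses, so that 2 compound KO libraries lay well below the rest. *Flrt3*, a membrane protein that binds FGF receptors, was at 22.0 to 29.0, 17.3 to 28.0 and 21.7 to 24.4. All 26 genes of the list of adaptors and the Ras-ERK cascade were in the table, with medians of −0.12 in compound KO and −0.09 in double KO lenses and 1 gene lower by the unadjusted threshold in each, as were 5.34% and 2.83% of all entries in either direction. *Crk*, an adaptor that binds Frs2 complexes, was at 147, 160 and 154 in control, 130, 140 and 139 in compound KO and 141, 40.4 and 55.2 in double KO lenses (log2 fold change −1.16 in the latter, SE 0.45, limma adjusted p = 0.482). *Gab1*, a docking protein below Frs2, was at 24.5 ± 7.07 in control lenses (SD, n = 3) and at 27.5, 1.3 and 26.4 in double KO lenses. In compound KO lenses *Gab1* was at 14.1 ± 3.84 (SD, n = 3) and overlapped with control. It was the gene of this list that was lower by the unadjusted threshold in compound KO lenses (log2 fold change −0.75, SE 0.29, limma adjusted p = 0.481, unadjusted p = 0.0463).

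Feedback inhibitors had 14 of 16 genes in the table and medians of 0.24 in compound KO and 0.11 in double KO lenses. *Dusp6*, already described, was the gene that passed the unadjusted threshold in compound KO lenses, against 5.34% of all entries in either direction. *Lgals1*, which was counted in this list, encodes galectin-1, which is not an established feedback inhibitor. It was at 16.2 to 22.9 in control lenses and at 70.7, 23.8 and 24.4 in compound KO lenses. *Dusp7*, a further ERK phosphatase, spanned 2.5 to 14.3 within control and 4.6 to 13.7 within double KO lenses. Of ERK-responsive transcription factors 14 of 19 were in the table, with medians of 0.26 in compound KO and 0.19 in double KO lenses, and 3 were higher by the unadjusted threshold in compound KO lenses, against 5.34% of all entries in either direction. Of these 3, *Etv1* and *Etv4* are already described, and the third was *Ier2*, an immediate early gene, named after its values were seen. *Ets2* was at 8.0 to 10.3 in control, 19.6, 9.5 and 10.6 in compound KO and 10.1 to 11.6 in double KO lenses, and *Elk4* was at 9.9 to 13.2, 11.5 to 13.2 and 12.5 to 14.5. Heparan sulfate, the co-receptor of FGF, was read through 21 of 22 genes, with medians of 0.07 and 0.03. In compound KO lenses 1 gene was higher by the unadjusted threshold, against 5.34% of all entries in either direction. *Gpc3*, a heparan sulfate proteoglycan, was not that gene (limma unadjusted p = 0.0871 between compound KO and control). It was at 6.5 to 9.4 in control lenses and at 71.9, 16.2 and 10.9 in compound KO lenses. *Extl3*, an enzyme of chain synthesis, was at 18.9 to 53.1 in control and 46.5 to 50.5 in double KO lenses. *Lgals1*, *Ets2* and *Gpc3* were each highest in compound KO replicate 1, with the high mesenchyme sum, whose part was not tested.

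**Figure D5:**
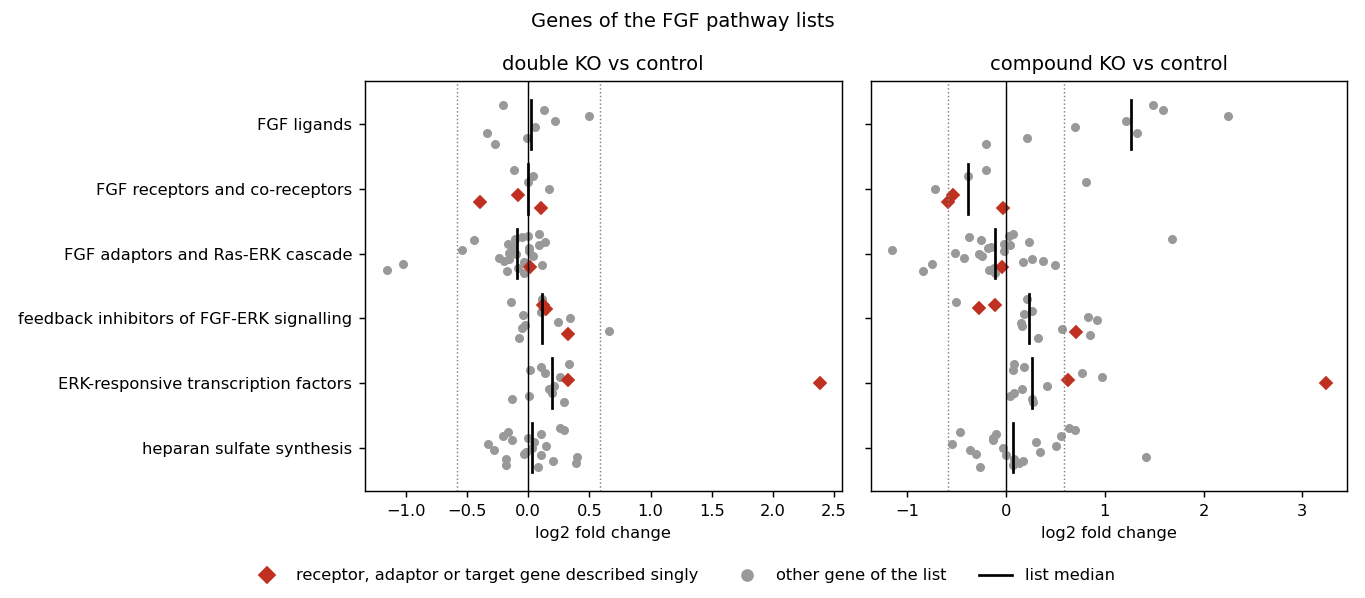
Log2 fold change of every tested gene of the 6 pathway lists in double KO and in compound KO lenses against control; diamonds are the receptor, adaptor and target genes chosen, grey points are other genes and bars are list medians. *Etv1* stands apart at 2.38 and 3.24, and the list of FGF ligands has a median of 1.27 in compound KO and 0.02 in double KO lenses. That list includes intracellular members of the FGF family. All of its genes in the table but *Fgf1* had their highest value in compound KO replicate 1.

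Genes with the pattern most like *Etv1* and *Fgfr2*, the 2 genes with the largest difference between double KO and control, were looked up by Pearson's r of the log2 values over the 9 libraries among 10391 genes, as a description. For *Etv1* they were *Ctcf* (r = 0.973), *Nufip1* (r = 0.908) and *1700123O20Rik* (r = 0.902). *Ctcf* was at 26.7 to 27.3 in control, 37.5 to 38.1 in compound KO and 36.5, 38.6 and 28.6 in double KO lenses. The third double KO library was near control for it, which a search for the pattern of *Etv1* favours by construction. For *Fgfr2* they were *Srpr* (r = 0.892), *Xist* (r = 0.888) and *Polr3d* (r = 0.886). *Xist*, the RNA of the inactive X chromosome of females, was at 582, 123 and 531 in control, 133, 295 and 420 in compound KO and 311, 400 and 287 in double KO lenses, lowest in control replicate 2 and compound KO replicate 1, the libraries that were also lowest for *Fgfr2*. The sex of the pooled embryos was not used as a term in the fits, and its part was not tested.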

How the data were processed

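RNA-seq was made from 9 pools of 8 lenses at E16.5, which were grouped by the genotype in their labels. The authors trimmed the reads, aligned them with HISAT2 to mm39 and assembled them with StringTie, and filtered the resulting counts for low expression in edgeR; versions are not given in the sources used here. The deposited table holds a normalized signal in which the authors scaled CPM by 1 factor per library, rounded to 1 decimal (the factor is inferred from unequal library totals). Read depth is unknown, so that no counting error is given. limma 3.58.1 (R 4.3.3) was run with an intensity trend on log2(value + 1), over entries with a symbol that reached 1 in 2 or more of the compared libraries. Each pair of groups was fitted alone, and both knockout groups were set against control in a fit of all 9 libraries. P-values are two-sided and were adjusted over all entries after Benjamini and Hochberg. The unadjusted threshold is a p of at most 0.05 with a 1.5-fold change. Positions come from GENCODE on GRCm39. The genes and lists were chosen with earlier results of these data known. Named genes are the 10 members and, of each list, the 2 with the largest difference of double KO from control and a mean of at least 10 in a group. The fit was tested on simulated data. Alternatives were other filters, pseudocounts, scalings and fits, and leaving out each library; that with the opposite entry added was chosen after seeing the data. Same-numbered libraries were not treated as pairs.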

Additional observations from a re-analysis of the deposited data

How the results depend on the processing

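Over the log2 fold changes of the 9 genes, 571 alternatives were run, of which 539 kept direction and side of the threshold, 3 gained a call (*Etv1*, without a single library) and 29 turned direction, 17 of these by leaving out a library. With the opposite entry added, *Etv1* turned to −0.14 between double KO and control, −0.58 between compound KO and control, 0.44 between double KO and compound KO and −0.36 between both knockout groups and control. These fits were chosen after seeing the data and are counted among the 571 and the 29. Their turn goes with how the entry was picked. Scaling by library size only put the median of all genes at 0.24 between compound KO and control, −0.17 between double KO and compound KO and 0.16 between both knockout groups and control, beside 0.02, −0.01 and 0.02 as deposited. Under it *Fgfr1* turned to 0.22, *Frs2* to 0.21, *Spry2* to 0.14 and *Mafk* to 0.0080 between compound KO and control, *Fgfr1* to −0.048 and *Frs2* to −0.13 between double KO and compound KO, and *Frs2* to 0.14 and *Spry1* to 0.10 between both knockout groups and control. Upper quartile scaling turned *Spry2* to −0.0012 in the last. Without single libraries, the difference between double KO and control ranged from −0.012 to 0.18 for *Fgfr1* and from −0.23 to 0.053 for *Fgfr3*. That between compound KO and control ranged from −0.15 to 0.12 for *Fgfr1*, from −0.49 to 0.079 for *Spry1* and from −0.17 to 0.0092 for *Spry2*. That between double KO and compound KO ranged from −0.012 to 0.24 for *Fgfr1* and from −1.49 to 0.40 for *Etv1*. That between both knockout groups and control ranged from −0.079 to 0.11 for *Fgfr1*, from −0.17 to 0.11 for *Spry1* and from −0.049 to 0.11 for *Spry2*.

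The count of the 9 genes called went from 0 to 3 between compound KO and control and to 1 between both knockout groups and control with the unadjusted p, and ranged from 0 to 1 without single libraries. Over all genes, called counts between double KO and control went from 51 to 21 in a single fit of all 9 libraries, 10 with the replicate block and 400 unadjusted, and ranged from 22 to 47 without single libraries. Between compound KO and control they went from 0 to 2 in the single fit and 766 unadjusted (0 to 13 without single libraries). Between double KO and compound KO they went from 2 to 5 in the single fit, 0 where every library had to reach 1, 1 with a pseudocount of 0.1, 0 with the replicate block and 440 unadjusted (1 to 6). Between both knockout groups and control they went from 21 to 0 with the replicate block and 428 unadjusted (0 to 63). Same-numbered libraries correlated by −0.106 to 0.216 after removal of group means in 9 pairs, 2 of them over 0.1. Of the 9 libraries, 6 correlated best with their own number. Whether same-numbered libraries share more than a number was not tested. With the block no gene of the 9 was called. Depth is unknown, and values near 1, as of *Etv4* and of *Etv1* in control lenses, carry rounding to 1 decimal. The cause of these moves was not tested.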
